A study of Mus musculus with 2 samples.

Results

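The levels of 6 miRNA genes known for precursors that need no cut by the nuclease Drosha were measured in the newborn mouse lung. The genes are the capped hairpins Mir320 and Mir484 and the mirtrons Mir877, Mir1981, Mir1224 and Mir702. They were chosen by symbol from the 1973 miRNA genes in the tables, and all 6 had a row. The samples form 1 group of 2 small RNA libraries, with no further tissue, age, genotype or treatment. Each library was made from both lungs of 1 pup of strain B6NCrl, a C57BL/6N substrain, taken at postnatal day 0. The labels name pups 1 and 3 of the same pregnancy but give them a single donor record, and the sex was not collected. Whole lung holds many cell types, and fewer cells of a type cannot be told apart from less RNA per cell.

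A canonical miRNA is cut from its primary transcript by Drosha with its partner DGCR8, and the hairpin is then cut by Dicer to the mature RNA. In a mirtron the spliceosome replaces Drosha: a short intron is spliced out, debranched and folded into a hairpin that goes straight to Dicer. In a capped hairpin, RNA polymerase II starts at the first base of the hairpin itself, so that the precursor carries the 7-methylguanosine (m7G) cap of its transcript and needs no cut at that end. These routes are known from cells that lack Drosha or DGCR8. The libraries hold no such cells, so the files measure the levels of these RNAs and not the route by which they were made.

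The mirtron hairpins are shown first, because their ends are the ends of an intron. Sequences are from RefSeq on GRCm38.p6, read 5′ to 3′, with the first GU and the last AG of the intron in capitals where the hairpin holds them.
Mir877, chr17:35960730-35960814, minus strand: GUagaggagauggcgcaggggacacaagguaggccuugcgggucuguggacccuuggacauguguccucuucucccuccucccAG
Mir1981, chr1:184822407-184822488, minus strand: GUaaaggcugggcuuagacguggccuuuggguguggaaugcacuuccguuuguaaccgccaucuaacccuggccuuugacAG
Mir1224, chr16:20604452-20604536, plus strand: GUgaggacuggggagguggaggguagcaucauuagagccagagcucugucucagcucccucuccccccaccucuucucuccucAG
Mir702, chr5:136991433-136991541, plus strand: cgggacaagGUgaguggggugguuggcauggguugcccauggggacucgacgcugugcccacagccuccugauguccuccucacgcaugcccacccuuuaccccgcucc

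In the GENCODE M21 annotation, 3 of the 4 mirtron precursors spanned an intron of their host gene from its first base to its last. Mir877 (ENSMUSG00000077931.1) was intron 12 of Abcf1, a gene for a translation factor of the ATP-binding cassette family, and was 85 bases long. Mir1981 (ENSMUSG00000088559.1) was intron 5 of Marc2, a gene for a mitochondrial reductase, and was 82 bases long. Mir1224 (ENSMUSG00000080669.1) was intron 22 of Vwa5b2, the last intron of that transcript, with 85 bases. Mir702 (ENSMUSG00000076240.1) departed from this pattern. Its 109-base precursor began 9 bases before intron 13 of Plod3, a gene for a collagen lysyl hydroxylase, so it overlapped an exon, and it ended 2 bases before the end of that 102-base intron.

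The annotated mature arms lay at the intron ends in every mirtron, Mir702 included. All 4 of the 5p arms began on the first base of the intron. The 3p arms ended 0, 1, 2 and 2 bases before the last base of the intron in Mir1224, Mir877, Mir702 and Mir1981. An intron ends in a stretch rich in C and U before its AG, and the 3p arms held such letters. They made up 90.9% of miR-877-3p, 85.7% of miR-1224-3p and 81.8% of miR-702-3p, but 66.7% of miR-1981-3p. The median over 1679 mature sequences in the RefSeq table was 50%, and 3.51% of them reached 80%.

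**Figure D1:**
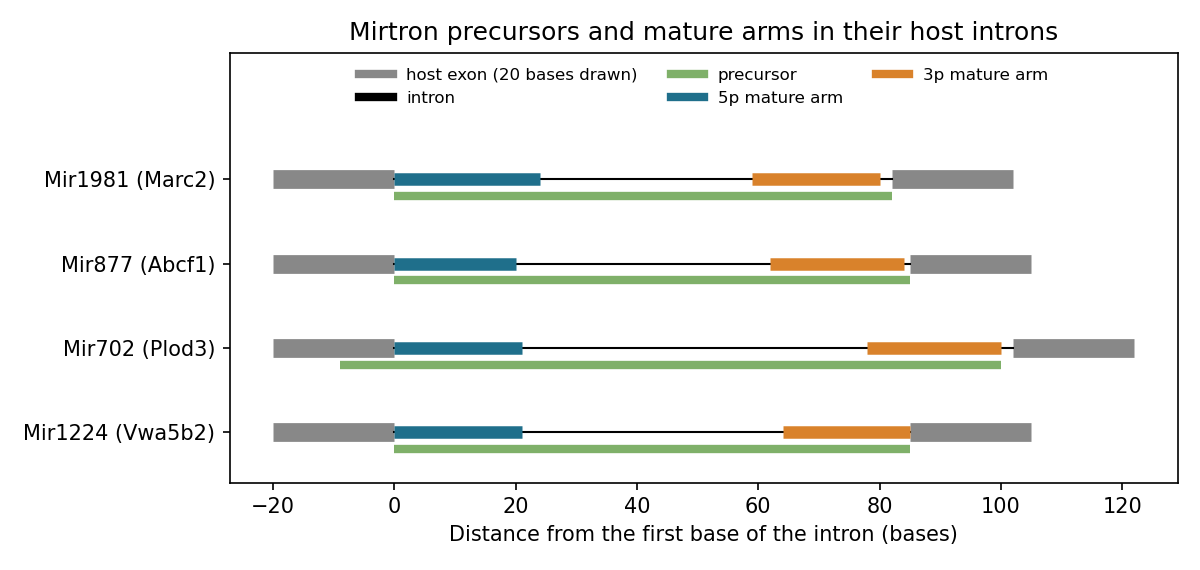
Maps of the 4 mirtron loci, drawn as distance in bases from the first base of the host intron (grey, 20 bases of each flanking exon; black line, intron; green, precursor; blue and orange, 5p and 3p mature arms). The 5p arm starts at 0 in every locus, and only the precursor of Mir702 reaches into an exon, by 9 bases.

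The mature sequences are given with the seed, bases 2 to 8, in capitals, since the seed decides which messages a miRNA pairs with.
miR-484: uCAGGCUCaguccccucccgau
miR-877-5p: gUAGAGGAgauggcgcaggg
miR-877-3p: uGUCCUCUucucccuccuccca
miR-1981-5p: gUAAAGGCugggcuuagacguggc
miR-1981-3p: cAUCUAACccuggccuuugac
miR-1224-5p: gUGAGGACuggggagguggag
miR-1224-3p: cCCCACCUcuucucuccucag
miR-702-5p: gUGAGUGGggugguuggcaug
miR-702-3p: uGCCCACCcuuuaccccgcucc
miR-3102-5p: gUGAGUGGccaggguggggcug
No seed was shared between the listed members. The seed of miR-702-5p was that of miR-3102-5p, which is shown for this reason and comes from an intron of Arhgef17. The other seeds of the listed members occurred in no further mature sequence of the table. Both of the sequences with the seed in common begin on the first base of an intron, where splice sites read GU. Reads of the 5p and 3p arms were counted together per precursor, so the arm that was present in the lung is not known from these values.

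The capped hairpins lay outside introns, each close to the start of a gene on the other strand. Mir320 (ENSMUSG00000065528.1, chr14:70443510-70443591, plus strand) was intergenic, and its first base lay 63 bases from the nearest transcript start of Polr3d, a gene for a subunit of RNA polymerase III that runs the opposite way. Mir484 (ENSMUSG00000070074.1, chr16:14159626-14159692, plus strand) had no host on its own strand. It overlapped an exon of a Marf1 transcript on the minus strand and lay 359 bases from the nearest Marf1 start. The next gene start on its own strand, that of Nde1, was 3649 bases away. Of the 1894 genes matched to the annotation, 32 lay within 500 bases of an opposite-strand start behind them, which is 1.69%. Among the 833 genes with no host on their own strand, as both capped hairpins are, there were 26, or 3.12%. The 500-base limit was chosen after values were seen, so these shares cannot show that the capped hairpins are unusual. Of the 32, 3 were detected, against 15.6% of all genes, namely Mir484, Mir320 and Mir673. Their levels were 1699 ± 146, 396 ± 5.35 and 56.4 ± 8.86 counts per 1000000 reads on miRNA genes (CPM, SD, n = 2).

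Replicate 1 held 4532902 and replicate 2 held 5426081 reads on the gene's own strand of miRNA genes. Levels are CPM over these reads, with 95% exact Clopper-Pearson intervals. They cover counting error only, and no error from making the library, such as copying by PCR. A bias that differs between genes and is shared by both libraries would show in neither the intervals nor the SD. Ratios between genes are therefore ratios of reads. A read holds a whole small RNA, so levels were not divided by length. The lung markers were present in both libraries, from 9839 CPM for epithelial Mir200c to 160649 CPM for endothelial Mir126a, with the liver marker Mir122 at 49.5 CPM. The erythroid marker Mir451a averaged 890 CPM (1064 and 716 for replicates 1 and 2), a level above that of Mir320. How many of the reads came from blood was not tested. No member held a stretch of 20 bases found in another miRNA gene, and 0 reads lay on the opposite strand of any member in either library.

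Mir484 was the highest of the 6, with 8171 reads in replicate 1 and 8660 in replicate 2. This gave 1803 CPM (interval 1764 to 1842) and 1596 CPM (1563 to 1630), a mean of 1699 ± 146 CPM (SD, n = 2). It ranked 56th of the 1973 genes. Mir320 followed with 1812 and 2128 reads, which gave 400 CPM (382 to 419) and 392 CPM (376 to 409), a mean of 396 ± 5.35 CPM, at rank 116. In each library Mir484 exceeded Mir320, by 4.51 times in replicate 1 and 4.07 times in replicate 2, a mean log2 ratio of 2.10 ± 0.10 (SD, n = 2).

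The mirtrons were present at far fewer reads. Mir1981 had 176 and 132 reads in replicates 1 and 2, or 38.8 CPM (33.3 to 45.0) and 24.3 CPM (20.4 to 28.8), a mean of 31.6 ± 10.3 CPM (SD, n = 2). Mir877 had 100 and 109 reads, or 22.1 CPM (17.9 to 26.8) and 20.1 CPM (16.5 to 24.2), a mean of 21.1 ± 1.39 CPM. Mir702 had 40 and 26 reads, or 8.82 CPM (6.30 to 12.02) and 4.79 CPM (3.13 to 7.02), a mean of 6.81 ± 2.85 CPM. Their ranks were 211, 230 and 268. Mir1224 had 0 reads in replicate 1, where 3 reads, or 0.662 CPM, were taken as the limit that a count of 0 allows and the two-sided interval reached 0.814 CPM, and 2 reads in replicate 2, or 0.369 CPM (0.0446 to 1.33). With a detection minimum of 10 reads in each library, 5 of the 6 members were detected, against 15.6% of all genes, and Mir1224 was not.

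**Figure D2:**
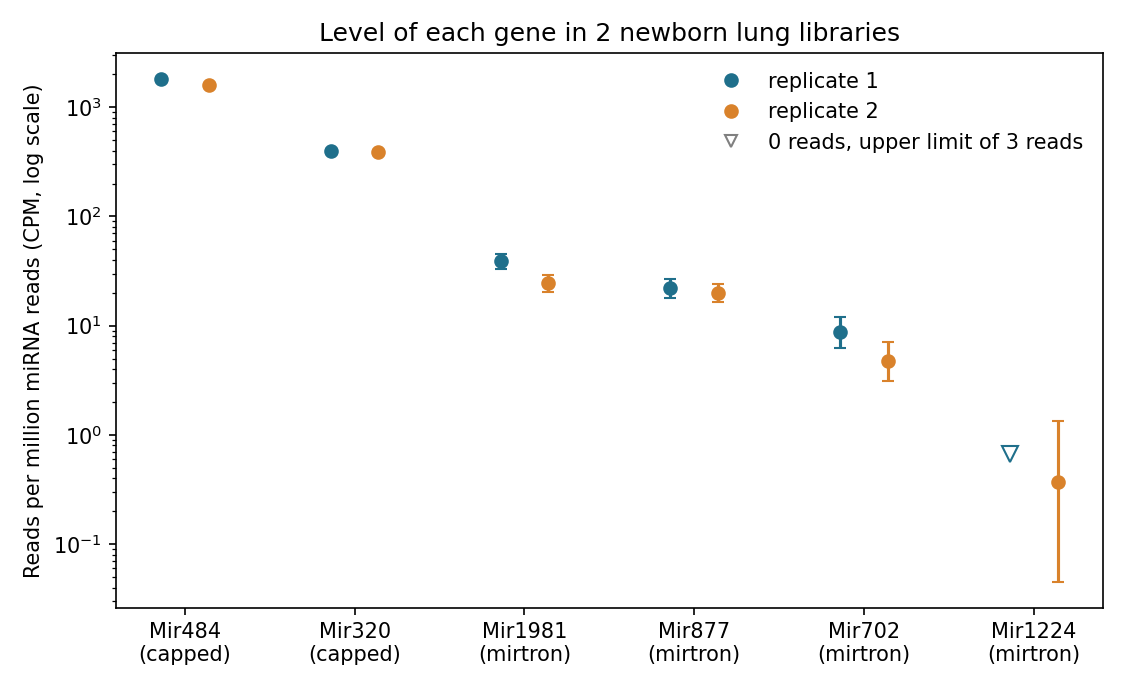
Level of each gene in CPM on a log axis, with 1 point per library and bars for the 95% exact interval of counting error. The capped hairpins lie above all mirtrons in both libraries, and the open triangle marks 3 reads, or 0.662 CPM, the limit taken for the count of 0 of Mir1224 in replicate 1.

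The order of the members was the same in both libraries, but not every step of it was larger than its error. Mir320, the lower of the capped hairpins, stood above Mir1981, the highest mirtron, by 10.3 times in replicate 1 and 16.1 times in replicate 2, a log2 ratio of 3.69 ± 0.46 (SD, n = 2). Mir1981 exceeded Mir877 by a log2 ratio of 0.82 in replicate 1 and 0.28 in replicate 2, a mean of 0.55 ± 0.38. Their counting intervals did not overlap in replicate 1 and overlapped in replicate 2, so the order of this pair was not resolved. Mir877 exceeded Mir702 by 1.69 ± 0.53 on the log2 scale, with separate intervals in both libraries. Mir702 was at least 13.3-fold higher than Mir1224 in replicate 1, with its 40 reads set against a limit of 3 reads for a count of 0 and their own counting error left aside. In replicate 2 the ratio was 13, with a counting interval of 3.25 to 113.

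The comparison of the classes followed from these levels. The capped hairpins together held 2202 CPM in the first library and 1988 CPM in the second, a mean of 2095 ± 151 CPM (SD, n = 2), and the 4 mirtrons held 69.7 and 49.6 CPM, a mean of 59.6 ± 14.2 CPM. The log2 ratio of the sums was 4.98 in replicate 1 and 5.33 in replicate 2, a mean of 5.15 ± 0.24, which is a ratio of 31.6 and 40.1. Mir484 made up 81.8% and 80.3% of the capped sum, and Mir1981 made up 55.7% and 49.1% of the mirtron sum. Without these most abundant members the log2 ratio was 3.83. With Mir3102, Mir6944 and Mir1982, further precursors at intron ends described next, counted as mirtrons it was 4.33. A p is not attached to the ratio, because flipping signs exactly over 2 libraries cannot give a two-sided value under 0.5, and the ratio compares 2 genes with 4.

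How these mirtrons stood among all precursors of the same build was asked with a rule that uses positions alone: both precursor ends within 10 bases of the ends of a single annotated intron on the same strand. It found 29 genes, the 4 mirtrons among them, with introns of 67 to 137 bases and a median of 85. In 22 of the 29 the precursor matched the intron exactly at both ends. At least 10 reads in each library were reached by 4 of the 29, or 13.8%, while 10 were without a read in both. Of these 4, 3 were members, which were chosen with earlier results of these data known, and the other was Mir3102. The share of 13.8% is therefore not free of that choice. Of 561 intronic precursors with neither end at an intron end, 129 were detected, which is 23.0%. The share was 15.6% over all 1973 genes and 16.9% over the 1748 genes with neither end at an intron end, wherever they lie. The 4 detected genes at intron ends had a median of 26.3 CPM, and the 129 detected intronic precursors had 146 CPM. Over all 308 detected genes it was 139 CPM. The sets differ in place: of the 4, Mir3102 and Mir702 overlap an exon, while the 129 were limited to precursors that overlap none on their strand. These shares are descriptions, and their difference was not tested.

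The highest of the 29 by mean CPM was not a member. Mir3102, the intron of Arhgef17 that holds miR-3102-5p, had 219 and 198 reads in replicates 1 and 2, or 48.3 and 36.5 CPM. RefSeq also lists miR-3102-5p.2-5p, which begins 22 bases into this intron and does not have the seed of miR-702-5p. Reads were counted per precursor and cannot be assigned to either product. The Mir3102 mean of 42.4 ± 8.36 CPM (SD, n = 2) lay above that of Mir1981, and its level was the higher in both libraries. No counting interval was computed for Mir3102, so this order was not set against counting error. The members made up 55.2% and 54.0% of the reads on the 29 genes, and Mir3102 a further 38.3% and 39.8%. Mir6944 of Dbn1, a gene for an actin-binding protein, had 13 and 5 reads. Mir1982 of Oaz1, a gene for an inhibitor of polyamine synthesis, had 10 and 7, Mir3062 of Pfas, a purine synthesis gene, had 3 and 7, and Mir7018 of Hspg2, the perlecan gene, had 2 and 2. Mir1839, Mir664 and Mir1291, which overlap small nucleolar RNAs, had no row under these symbols and were not analysed here.

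**Figure D3:**
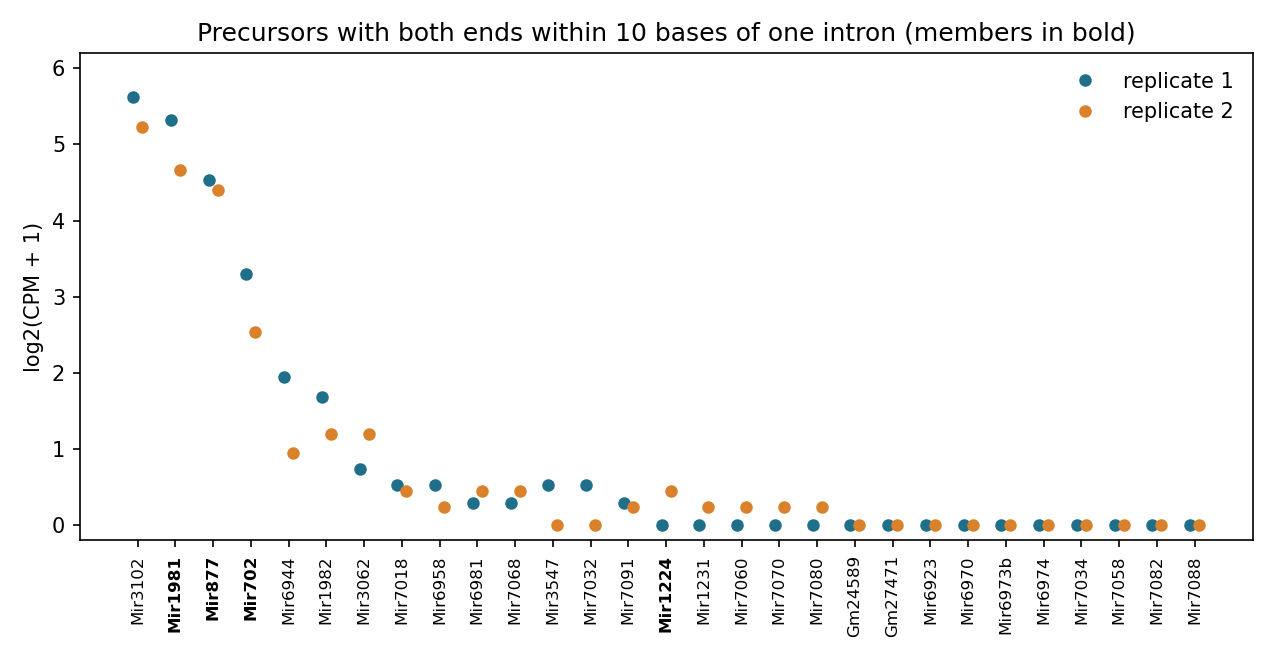
Level of the 29 precursors whose ends lie within 10 bases of the ends of 1 intron, as log2(CPM + 1) with 1 point per library, in falling order of the mean. Mir3102, Mir1981, Mir877 and Mir702 stand apart from the rest, and 10 genes lie at 0 in both libraries.

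The hairpins were also compared by sequence. Of 869 measured genes with a hairpin in the RefSeq table, 30 began with GU and ended with AG, which is 3.45%, and 15 of these had both ends at intron ends by the position rule. Mir877, Mir1981 and Mir1224 were among them, and Mir702 was not, since its hairpin starts in the exon. The G and C content was 65.1% in Mir702, 61.2% in Mir877, 60% in Mir1224 and 53.7% in Mir1981. The median was 52.3% over the 869 hairpins and 60.5% over the 23 hairpins at intron ends by the position rule. The predicted folding energy was -42.8 kcal/mol for Mir1224, the mirtron with the fewest reads, and -36.5 for Mir877. It was -30.3 for Mir1981, the member mirtron with the most reads, and -47.4 for the longer Mir702. Per base, the fold was stronger than that of 83.9% of hairpins in Mir1224, 61.3% in Mir702, 58.3% in Mir877 and 30.03% in Mir1981. This order is the reverse of that of the mean levels, in which the order of Mir1981 and Mir877 was not resolved. Without division by length the order differed, with the strongest fold in Mir702. Of the capped hairpins, Mir484 had 58.2% G and C, -24.6 kcal/mol and a fold per base stronger than that of 29.7% of hairpins. Mir320 had no hairpin entry. The order among the mirtrons is a description of 4 genes, and the hairpin comparison was chosen after values were seen.

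Genes directly above and below a member in the order of mean level show where it stands in the lung profile. Mir484 stood between Mir15b at 1701 ± 243 CPM and Mir141, a miRNA of the epithelial miR-200 family, at 1684 ± 143 CPM (SD, n = 2). Mir320 stood between Mir298 at 408 ± 6.86 CPM and Mir467c, of the Sfmbt2 intron, at 393 ± 8.63 CPM. Mir1981 lay between Mir450-2 at 32.4 ± 4.69 CPM and Mir193b at 29.8 ± 3.77 CPM. Mir877 lay between Mir193a at 21.3 ± 1.13 CPM and Mir7b at 21.1 ± 4.23 CPM. Mir702 lay between Mir147 at 6.87 ± 0.975 CPM and Gm26117, which had 4 and 67 reads. The likeness is one of level in 2 libraries. The values of each member overlapped those of both neighbours, except that both values of Mir298, 403 and 413 CPM, lay above those of Mir320.

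Differences between the pups were read against counting error. A two-sided exact binomial test compared each gene's split of reads with the library totals, with Benjamini-Hochberg adjustment over the 375 genes that had 10 or more reads when the libraries were added. It compares these 2 libraries and no condition. Of the 5 members tested, 3 passed at 0.05, all lower in replicate 2. Of all genes tested, 42.4% passed and 23.2% did so on the lower side, so with 5 genes the count says little about the members.

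Mir484 was lower in replicate 2 by a log2 ratio of -0.18 (adjusted p = 2.03e-14, exact binomial test). That is a small change at high depth, within the SD of 0.26 over 233 genes whose mean was 100 reads or more. Mir1981 had a log2 ratio of -0.67 (adjusted p = 0.000166, exact binomial test), which lies outside that SD, and its summed reads were the largest among the 4 mirtrons. Mir702 had a log2 ratio of -0.88 from 40 and 26 reads (adjusted p = 0.044, exact binomial test), and this call was lost with the trimmed mean of M-values (TMM) scaling of edgeR (adjusted p = 0.0594) and with DESeq2's size factors (0.0584). Mir320 at -0.03 (adjusted p = 0.719) and Mir877 at -0.14 (0.700) did not pass the exact test, and the sign of Mir320 turned to 0.04 with TMM and 0.03 with size factors. Outside the members, Mir3102 was at -0.40 (adjusted p = 0.0124, exact binomial test). With reads on miRNA genes as the scale, 45.3% of all called genes were higher in replicate 2, against 62.3% with TMM and 58.5% with size factors.

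**Figure D4:**
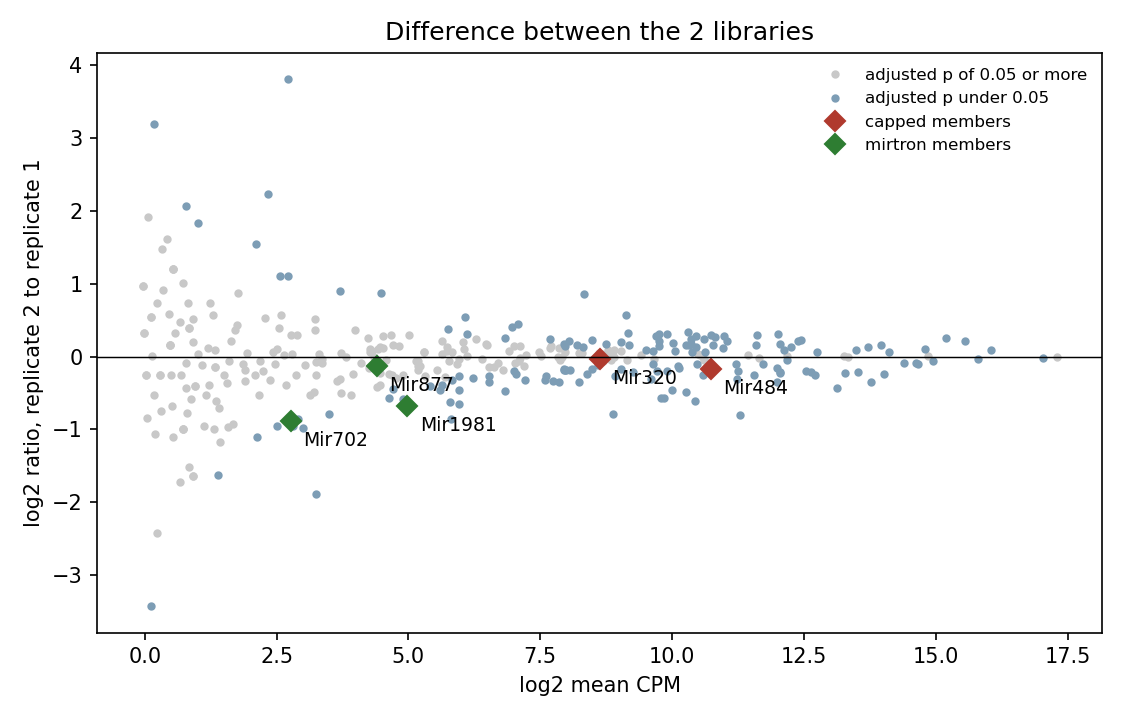
Log2 ratio of replicate 2 to replicate 1 against log2 mean CPM for the tested genes with reads in both libraries, blue where the adjusted p of the exact binomial test is under 0.05. The capped hairpins (red) lie at -0.03 and -0.18 and the 3 detected mirtrons (green) between -0.14 and -0.88, among genes of like level.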

How the data were processed

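For every library the authors deposited a table of raw read counts by miRNA gene, on mm10 and GENCODE M4 per the text files deposited beside them. The aligner, counter and trimming were not given in the sources used here. The count column used holds reads on the gene's own strand. No statement of strand was found, and replicates 1 and 2 had 98.2% and 98.04% of their miRNA gene reads in it. The 4 rows that name no gene held 45.2% and 47.8% of all reads, mostly reads mapped to several places (34.6% and 36.7%), and stayed out of library sizes and tests.

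Here, 1894 of 1973 identifiers matched GENCODE M21 on GRCm38, the assembly of mm10, for symbols, hosts and introns. Hairpins and mature sequences came from RefSeq on GRCm38.p6, where 5 of the 6 members had an entry. Folds were predicted with RNAfold 2.7.2. CPM, exact intervals and the exact binomial test used scipy 1.17.1. The alternative scalings used edgeR 4.0.16 and DESeq2 1.42.0. The binomial test was tested on simulated counts that held counting error only, the error it assumes. That check says nothing of variation between libraries beyond counting error. A quasi-likelihood fit was not possible with a single library a side. That the libraries come from different pups rests on the labels. p-values measure only counting error between these libraries.

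The members and lists were chosen with earlier results of these data known. The distance to opposite-strand starts, its 500-base limit, the share of C and U, the hairpin comparison and the 2 added class sums were chosen after values were seen. Named were the 6 members, the genes next above and below each detected member in mean CPM, the 5 highest others at intron ends, and Mir1839, Mir664, Mir1291, Mir1982 and Mir3102. Further genes named (Mir673, Mirlet7i, and those with 1 end at an intron end) were chosen after their values were seen.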

Additional observations from a re-analysis of the deposited data

How the results depend on the processing

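The ratio of capped hairpins to mirtrons kept its sign in 8 alternatives, but the levels had fixed that sign beforehand. Mir320, the lower capped hairpin, exceeded Mir1981, the highest of the 4 mirtrons, 10.3 times in replicate 1 and 16.1 times in replicate 2. The added Mir3102, at a mean of 42.4 CPM, also lay below Mir320 at 396 CPM. Reads on either strand and leaving out shared stretches could not even move the ratio, since no member has such reads or stretches. From 5.15 on the log2 scale it moved to 3.83 without the most abundant member of each class, to 6.53 as a difference of mean log2(CPM + 1), and to 4.33 with Mir3102, Mir6944 and Mir1982 added, an alternative chosen after seeing the data. The first and last sum other members and the second weights the same members equally, by construction. Leaving out a replicate gave 4.98 to 5.33. Per 1000000 of all reads of the library, levels were 910 for Mir484, 212 for Mir320 and 17.0 for Mir1981. The count of 5 detected members was the same with minimums of 1, 5 and 20 reads and without either replicate. The number of precursors at intron ends was 29 with 10 bases, 22 with 2 and 48 with 20, and the 20-base rule brought in Mirlet7i, whose precursor lies within a 116-base intron at 29478 CPM. Mir702 met the 2-base rule at 1 end. The log2 ratio of Mir320 between libraries changed sign from -0.03 to 0.0419 with TMM and to 0.0261 with size factors, and passed no test. Genes called between libraries numbered 145 to 162 over 4 alternatives, against 159 of 375 tested. The number tested changed with the read minimum, and so did the share called. With at least 1 read together 147 of 667 were called, and with at least 100 reads together 145 of 251. With 375 tested, TMM gave 162 and size factors 159. No paired analysis was possible because there is 1 group. Depth limits Mir1224, Mir702 and the other precursors with few reads: a count of 0 allows up to 3 reads, or 0.662 CPM in replicate 1 and 0.553 CPM in replicate 2.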

Other observations

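Precursors with 1 end only within 10 bases of an intron end were counted too. There were 196, and 9 of them (4.59%) had at least 10 reads in each library, against 15.6% of all genes. The highest were Mir369 at 1570 ± 48.9 CPM and Mir382 at 1563 ± 181 CPM (SD, n = 2), both overlapping exons of Mirg, a long noncoding RNA of the imprinted Dlk1-Dio3 region. Among those in introns, Mir7083 ended on the last base of an 1833-base intron of Dock6 and had 44 and 54 reads in replicates 1 and 2, more than Mir702. Mir3097 in Rgs12 had 17 and 21 reads.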
